A study of Brassica rapa with 36 samples.

Results

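Embryos at the 8-cell stage were compared with late unicellular microspores in Brassica rapa line K2, which the series describes as inducible to androgenesis, the formation of embryos from immature pollen cells. The comparison held 3 libraries of 8-cell embryos and 3 of K2 late microspores, 6 of the 36 libraries of the series, and all 47135 gene IDs of their count tables. No treatment is named in the labels of either group, both carry the genotype K2, and the labels do not give the number of cells or plants behind a library. The other libraries used below to describe genes were K2 2-cell and 4-cell embryos, K2 pollen from the flowering stage and K2 leaf. K2 microspores after heat shock (heated) and without it (unheated) were used too. From 49CX, a line described as non-inducible, late, heated and unheated microspores and leaf were used. Each of these groups had 3 libraries, except K2 pollen, where 1 library held gene counts.

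A microspore normally completes an asymmetric division and matures into pollen, a short-lived, specialised cell with a narrow and abundant set of transcripts. After a stress such as heat, microspores of responsive lines can leave that path, divide symmetrically and form an embryo without fertilisation, which is widely used to produce doubled haploid plants. Late unicellular microspores are the stage just before the first pollen division, and 8-cell embryos lie several divisions into the embryo path. The gene IDs could not be paired with names: 0 of 47135 matched the RefSeq gene table at hand. Known pollen or embryo markers could therefore not be looked up, the labels could not be checked against named marker genes, and no sequence is shown. Cell types were followed instead with gene lists built from libraries outside the comparison.

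The 8-cell libraries held 70395, 74609 and 126154 gene counts, and the late microspore libraries 529458, 216693 and 216793. Outside the comparison, 2-cell libraries held 170479, 164510 and 6021 gene counts, and 4-cell libraries 8549, 31333 and 37097. Reads in no annotated gene made up 59.5%, 65.3% and 71.8% of counted reads (in a gene, in none, or ambiguous) in 8-cell embryos, and 69.6%, 83.5% and 77.1% in late microspores. The 8-cell libraries differed from each other far more than late microspore libraries did: where a pair's summed count reached 20 per gene, chi-square per degree of freedom was 7.28 to 16.3 between 8-cell pairs, against 1.04 to 1.16 between late microspore pairs. The closest late pair, replicates 2 and 3, had a chi-square p of 0.0216 over 5483 genes. That test takes reads as independent molecules, which amplified reads are not, so it does not show whether the late libraries are separate samples. Their labels list them as replicates, and they were counted as 3; without replicate 2 or without replicate 3 the test below called 2560 and 2547 genes. Separate plants or cultures are not stated for the replicates, and p-values here reflect library-to-library spread that may be technical. Among genes with a mean of at least 20 counts in the group, the median SD of log2 CPM (counts scaled to a common library total) was 0.55 in 8-cell embryos (456 genes) and 0.19 in late microspores (3332 genes).

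One 8-cell library stood apart in its share of pollen list genes. The pollen list holds 712 gene IDs that were at least 4-fold higher in K2 pollen than in K2 leaf, heated microspores and early embryos. It took 0.786%, 1.52% and 20.7% of the gene counts of 8-cell replicates 1, 2 and 3 (exact Clopper-Pearson 95% intervals 0.722% to 0.854%, 1.43% to 1.61% and 20.5% to 20.9%, counting error only). In late microspores the shares were 1.42%, 1.38% and 1.38%, and in the single pollen library 77.7%. Among other embryos the list held 0.714% to 15.9% in 2-cell and 1.48% to 5.78% in 4-cell libraries. It was not limited to pollen: it held 0.883% ± 0.0559 in heated and 11.8% ± 0.0415 in unheated K2 microspores, and 23.2% ± 0.717 in heated, 27.0% ± 0.860 in unheated and 7.59% ± 0.376 in late 49CX microspores (SD, n = 3). Replicate 3 was thus far above every other library of the comparison, while replicate 1 was below and replicate 2 just above the late microspores. In bulk RNA, more cells carrying these transcripts and more of them per cell cannot be told apart, and pollen and unheated microspores both carry them. Some shares and calls below are also given without pollen list genes or without replicate 3. The source of these transcripts was not tested.

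**Figure D1:**
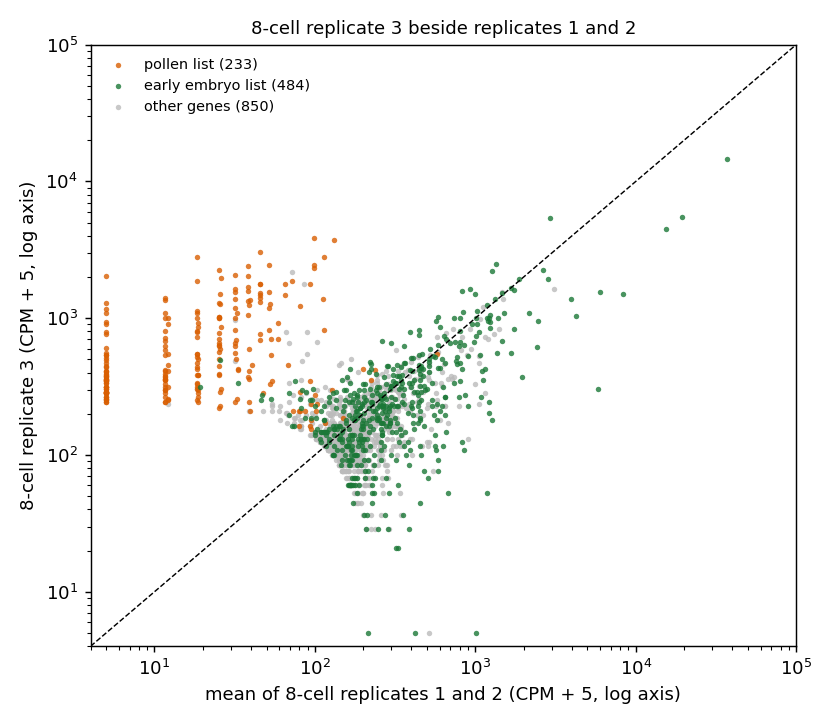
Level of each of 1567 genes with at least 30 counts over the 8-cell libraries, in 8-cell replicate 3 (vertical axis) and as the mean of replicates 1 and 2 (horizontal axis), in CPM + 5 on log axes; each point is a gene and the dashed line marks equal levels. Of 233 pollen list genes (orange) 232 lie above the line, and of 484 early embryo list genes (green) 171 do.

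The 8-cell excess in the pollen list rested on that library. The list held 7.66% ± 11.3 of counts in 8-cell embryos and 1.39% ± 0.0224 in late microspores (SD, n = 3 each), and the ranges overlapped (exact 2-sided permutation p = 0.7). Without replicate 3 the 8-cell mean was 1.15%, below that of late microspores. Genes at least 4-fold above both other 8-cell libraries numbered 230 in replicate 3, of which 210 were pollen list members, against 19 in replicate 1 and 10 in replicate 2, of which 0 were. Shares of counts in the 6 gene lists are given by library below, and calls of list members also without replicate 3.

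Across the genome, 8-cell embryos and late microspores differed in most of the genes that could be tested. Of 4321 genes with enough counts, edgeR's quasi-likelihood test called 2582 (59.8%) at a Benjamini-Hochberg adjusted p under 0.05, with 1185 higher (27.4%) and 1397 lower (32.3%) in 8-cell embryos. Changes were large: 771 of the higher and 905 of the lower genes differed by at least 4-fold, and 441 and 421 by at least 16-fold, on the fitted scale. Separate CPM ranges in the 2 groups were found for 2492 called genes (57.7% of those tested), 1109 of them higher and 1383 lower. Called or not, 66.6% of tested genes had separate ranges, 27.8% with 8-cell embryos above and 38.8% with 8-cell embryos below. Every gene called higher had a count in all 3 8-cell libraries, and 65 of them had 0 counts in late microspores. Every gene called lower had a count in all 3 late microspore libraries, and 266 had 0 counts in 8-cell embryos.

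**Figure D2:**
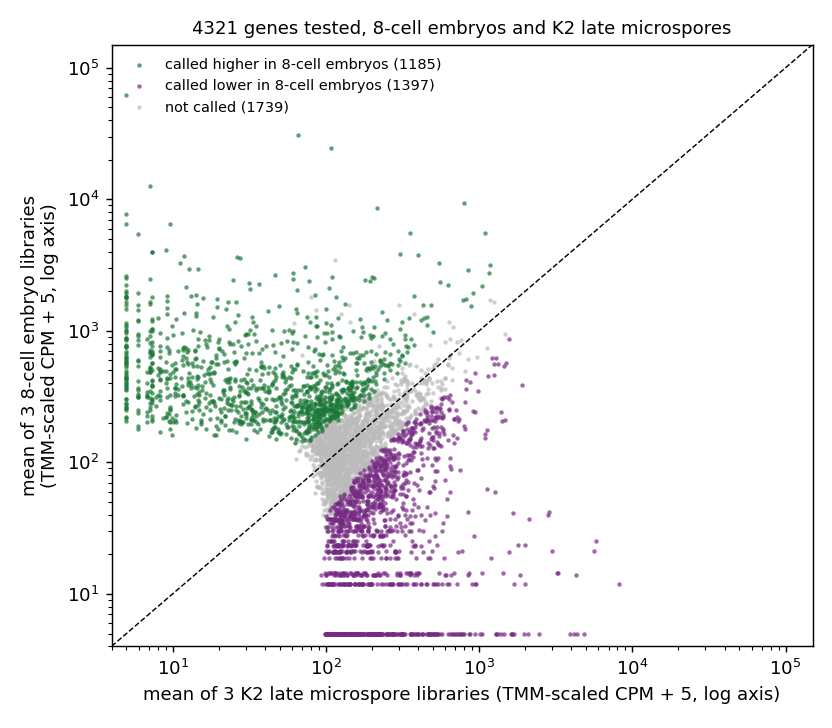
Mean level of each of 4321 tested genes in 8-cell embryos (vertical axis) and in K2 late microspores (horizontal axis), n = 3 libraries each, in CPM scaled by TMM factors + 5 on log axes; green points were called higher (1185) and purple points lower (1397) in 8-cell embryos, grey points were not called (1739). Called genes lie on both sides of the dashed line of equal levels, and the empty lower left corner is where the filter on low counts removed genes.

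The balance of higher and lower calls depended on how libraries were scaled. By library size alone the split was 972 higher and 1929 lower, with the median of all genes moved by -0.49 on the log2 scale. With DESeq2's size factors it was 1136 higher and 1511 lower, with a move of -0.11. Under library size alone the 972 higher calls and 1397 of the lower calls were among those of the TMM fit, and 0 genes changed direction. Without 8-cell replicate 3 the test called 3365 of 6996 genes (48.1%), 1490 higher (21.3%) and 1875 lower (26.8%). These held 988 of the 1175 genes called higher before that could be tested again and 1277 of the 1397 called lower.

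The most abundant gene of 8-cell embryos was not counted in late microspores. BraC04g021950.1 had 1732, 3704 and 1829 counts in the 8-cell libraries, against 0 counts in each late microspore library. It ranked first in all 3 8-cell libraries, with 2.46%, 4.96% and 1.45% of gene counts. Its level of 29583 ± 18095 CPM in 8-cell embryos (SD, n = 3) was at least 9495-fold higher than the limit of 3.12 CPM that 0 counts over the late microspore libraries allow (edgeR, adjusted p = 2.55e-08). Outside the comparison it stood at 0 CPM in K2 leaf and pollen, 3.41 ± 3.77 CPM in unheated microspores, 23.8 ± 2.16 in heated microspores, 8917 ± 1800 in embryos of 2 cells and 16701 ± 9718 in embryos of 4 cells (SD, n = 3 except pollen). The 2-cell, 4-cell and 8-cell ranges of 7142 to 10740, 5526 to 23171 and 14498 to 49646 CPM overlapped between neighbouring stages.

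By fitted fold change, under the naming rule, BraC03g023210.1 was among the 2 IDs raised most, and it was uneven between embryo libraries. It had 586, 241 and 38 counts in 8-cell embryos, against 0 counts in each late microspore library, a level of 3952 ± 4060 CPM (SD, n = 3) that was at least 1269-fold higher than the late microspore limit. Its adjusted p in edgeR was 0.0253, and it was not called without 8-cell replicate 1 (adjusted p = 0.160), without replicate 2 (adjusted p = 0.211) or with no filter on low counts (adjusted p = 0.191); over all alternatives run its adjusted p lay between 3.40e-18 and 0.211. In heated microspores it had 167 ± 87.0 CPM, in unheated microspores 0.927 ± 1.61, in 2-cell embryos 2929 ± 1714 and in 4-cell embryos 67.6 ± 44.1 (SD, n = 3). The 4-cell level rests on 1, 1 and 2 counts in shallow libraries, and its range of 31.9 to 117 CPM overlaps the 86.4 to 259 CPM of heated microspores.

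BraC01g041330.1 and BraC02g002440.1 were the 2 IDs lowered most. BraC01g041330.1 had 0 counts in each 8-cell library, against 2047, 669 and 661 counts in late microspores, where 3334 ± 461 CPM (SD, n = 3) put it among the 5 most abundant genes of every library. BraC02g002440.1 also had 0 counts in each 8-cell library, against 1650, 647 and 626 counts and 2997 ± 115 CPM in late microspores. Against the limit of 11.1 CPM that 0 counts over the 8-cell libraries allow, they were at least 301-fold and 271-fold lower in 8-cell embryos (edgeR, adjusted p = 2.81e-08 and 2.73e-08). They parted ways in the other microspores: BraC01g041330.1 had 934 ± 163 CPM with heat and 103 ± 20.9 without, while BraC02g002440.1 had 2.16 ± 2.16 CPM with heat and 46.0 ± 9.89 without (SD, n = 3). In late microspores of 49CX they had 204 ± 29.4 and 131 ± 17.1 CPM (SD, n = 3).

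**Figure D3:**
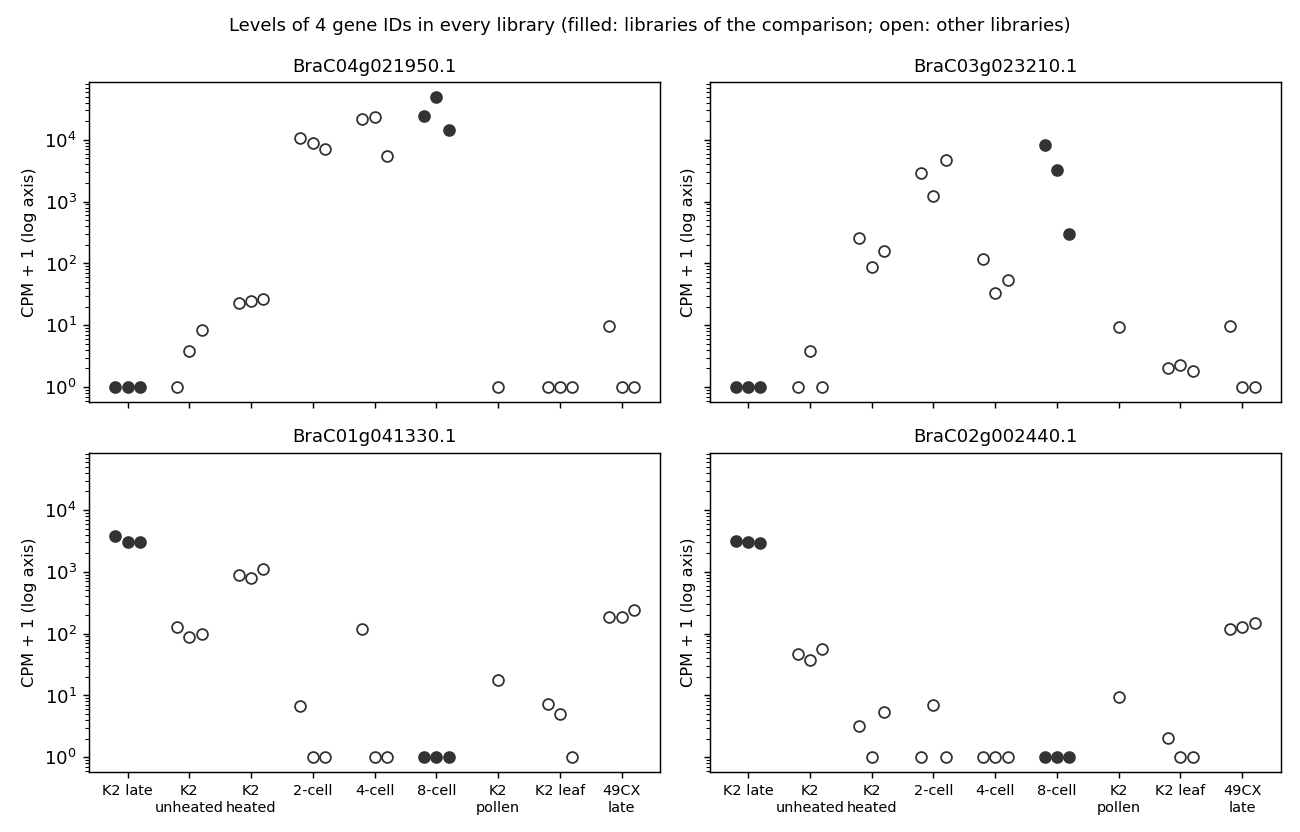
Level of the 2 IDs raised most (upper panels) and the 2 lowered most (lower panels) in every library of 9 groups, in CPM + 1 on a log axis; each point is a library, filled for the 6 libraries of the comparison. The raised IDs are at 0 counts in late microspores and reach 29583 and 3952 CPM on average in 8-cell embryos. BraC03g023210.1 averages 167 CPM in heated microspores and 67.6 CPM in 4-cell embryos, where it has 4 counts in all. These ranges overlap (86.4 to 259 and 31.9 to 117 CPM). The lowered IDs reach 3334 and 2997 CPM on average in late microspores and 0 counts in 8-cell embryos.

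The 12 IDs raised most and the 12 lowered most showed the same contrast. All 12 raised IDs had at most 1 count over the late microspore libraries, 10 of them had 0, and together they held 2.49% to 8.25% of counts in the 8-cell libraries. They belonged to the early embryo list described below in 12 of 12 cases and to the heat-raised list in 7. Those lists held 10.4% and 9.65% of the genes tested. All 12 lowered IDs had 0 counts in 8-cell embryos, and held 2.13% to 2.25% of counts in late microspores. Of these lowered IDs, 4 were 49CX late microspore, 3 heat-raised, 3 heat-lowered and 1 leaf list members. Those lists held 4.21%, 9.65%, 6.09% and 4.95% of the genes tested. All 12 lowered IDs had counts in heated, in unheated and in 49CX late microspores, and 4 had a count in 2-cell and 4 in 4-cell embryos.

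Complete switches were counted without a test. There were 44 IDs with at least 10 counts in every 8-cell library and 0 counts over the late microspores, of 627 IDs at that level in 8-cell embryos. These 44 held 5.66%, 8.15% and 3.23% of counts in 8-cell replicates 1, 2 and 3. Their share was 0.0148% ± 0.00166 in unheated and 0.206% ± 0.0501 in heated microspores, 2.68% ± 0.117 in embryos of 2 cells and 3.27% ± 1.28 in embryos of 4 cells (SD, n = 3), and 0.00254% in pollen. In the other direction 372 IDs had at least 10 counts in every late microspore library and 0 counts over the 8-cell embryos, of 4562 at that level. They held 7.63%, 7.27% and 7.53% of counts in late microspores, 1.11% ± 0.0351 in heated and 3.16% ± 0.0432 in unheated microspores, and 8.39% ± 1.13 in K2 leaf (SD, n = 3). The late microspores held 962944 counts and the 8-cell embryos 271158, so a switch off was harder to establish at this depth.

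The early embryo list asks whether 8-cell embryos shared transcripts with earlier embryos. Its 1108 members were at least 4-fold higher in K2 2-cell and 4-cell embryos than in leaf, pollen and unheated microspores. That rule asks for lower levels in unheated microspores and sets no limit in K2 late microspores. Higher values in 8-cell embryos are thus partly built into the list. The members held 28.9%, 36.3% and 20.8% of counts in 8-cell replicates 1, 2 and 3, against 1.70%, 1.84% and 1.77% in late microspores, a share 16.2-fold higher on average. Every 8-cell library was above every late microspore library (exact 2-sided permutation p = 0.1, the smallest that 3 against 3 allows, and 0.15 after Benjamini-Hochberg adjustment over 6 lists). Counted without pollen list genes, the 8-cell shares were 29.1%, 36.9% and 26.2%, so replicate 3 lay closer to the others. For scale, the list held 27.8% ± 4.08 in 2-cell and 24.4% ± 4.39 in 4-cell embryos, which defined it, and 4.99% ± 0.487 in heated microspores (SD, n = 3).

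Gene by gene, 790 of the 1108 early embryo members were higher in every 8-cell than in every late microspore library, where 7.64% of all 38547 genes with a count were, and 15 were lower in every 8-cell library, where 22.4% of all genes were. At least 1 count was found for 998, 970 and 1041 members in the 8-cell libraries, and for 732, 707 and 624 in the deeper late microspore libraries. Of the 449 members that passed the low-count filter, edgeR called 434 higher and 7 lower, beside 27.4% higher and 32.3% lower of all genes tested. The median log2 fold change of these members was 5.84 (5.83 with the 59 genes at 0 in late microspores set to their lower bound), beside -0.28 over all genes tested. A gene absent from late microspores could pass the filter only through its level in 8-cell embryos, so these counts are a description of the members that passed. Without replicate 3, 549 of 587 members were called higher and 7 lower, beside 21.3% higher and 26.8% lower of all genes tested.

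Genes higher in heated than in unheated K2 microspores were also high in 8-cell embryos. Late microspores had no part in that choice, so these genes need not have risen from late microspores with heat. The heat-raised list holds 1057 IDs at least 4-fold higher in heated than in unheated K2 microspores and called by edgeR, in a comparison that shares no library with this one and in which 58.0% of genes were called. It held 18.2%, 17.0% and 12.4% of counts in the 8-cell libraries, against 6.65%, 6.22% and 6.42% in late microspores, with no overlap (exact 2-sided permutation p = 0.1, adjusted p = 0.15, in 3 of 3 libraries). The defining heated microspores held 17.5% ± 0.862 and the unheated 1.60% ± 0.0644 (SD, n = 3). Members were mixed in direction: 242 were called higher and 63 lower of 417 that passed the filter, with a median log2 fold change of 1.52, where 27.4% and 32.3% of all tested genes were called higher and lower. Of all 1057 members 338 lay above late microspores in every library, where 7.64% of all genes did, and 183 lay below (17.3%), where 22.4% of all genes did. Without replicate 3, 270 of 565 members were called higher and 85 lower, with a median of 1.05, beside 21.3% higher and 26.8% lower of all genes tested. The list shared 181 IDs with the early embryo list, 17.1% of it and 16.3% of the early embryo list.

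Genes lower in heated than in unheated K2 microspores were low in 8-cell replicates 1 and 2 and high in replicate 3. The 782 members held 1.32%, 1.81% and 10.9% of counts in the 8-cell libraries, against 8.26%, 7.66% and 8.16% in late microspores (exact 2-sided permutation p = 0.4, adjusted p = 0.48). Of the members, 145 (18.5%) were also pollen list genes, and pollen list genes held 20.7% of replicate 3. With pollen list genes left out, the remaining 637 members held 1.24%, 1.39% and 2.17% in 8-cell embryos and 7.37% ± 0.291 in late microspores (SD, n = 3), with no overlap (exact 2-sided permutation p = 0.1). Of the 263 members that passed the filter, 201 were called lower and 12 higher in 8-cell embryos, with a median log2 fold change of -3.46 (-2.91 with the 68 genes at 0 in 8-cell embryos set to their bound), beside 32.3% lower and 27.4% higher of all genes tested. Without replicate 3, 258 of 345 members were called lower and 16 higher, with a median of -4.13, beside 26.8% lower and 21.3% higher of all genes tested.

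Late microspore transcripts were followed with a list from the other line. Its 271 members were at least 4-fold higher in 49CX late microspores than in 49CX leaf, K2 pollen and early embryos. That rule asks for lower levels in early embryos and sets no limit in K2 late microspores. Lower values in 8-cell embryos are thus partly built into the list. The members held 0.582%, 0.533% and 0.445% of counts in 8-cell embryos, against 6.85%, 5.96% and 6.42% in K2 late microspores (exact 2-sided permutation p = 0.1, adjusted p = 0.15, lower in 3 of 3 libraries). K2 heated microspores held 1.77% ± 0.140 and unheated ones 11.0% ± 0.294 (SD, n = 3). Of all 271 members, 223 (82.3%) were lower in every 8-cell than in every late microspore library, where 22.4% of all genes were, and 2 were higher. The 65 members with 0 counts in 8-cell embryos (24.0%) were a smaller share than the 31.4% of all genes with a count that were at 0 there. Among the 182 that passed the filter 154 were called lower and 1 higher, with a median log2 fold change of -3.90 (-2.99 with bounds), beside 32.3% lower and 27.4% higher of all genes tested. Without replicate 3, 173 of 227 members were called lower and 2 higher, beside 26.8% lower and 21.3% higher of all genes tested.

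Leaf list genes were also lower in 8-cell embryos. The leaf list holds 1057 IDs at least 4-fold higher in K2 leaf than in pollen, heated and unheated microspores and early embryos. This rule too asks for lower levels in early embryos and sets no limit in K2 late microspores, so the direction is partly built in. The list held 1.003%, 0.895% and 0.783% of counts in 8-cell embryos, against 5.70%, 5.97% and 5.81% in K2 late microspores, with no overlap (exact 2-sided permutation p = 0.1, adjusted p = 0.15). Late microspores of 49CX held 1.36% ± 0.139 and K2 leaf, which defined the list, 31.6% ± 3.59 (SD, n = 3). Of all 1057 members, 619 (58.6%) were lower in every 8-cell library, where 22.4% of all genes were, and 18 were higher. Of 214 that passed the filter 191 were called lower and 2 higher (32.3% and 27.4% of all genes tested), with a median log2 fold change of -4.32 (-3.05 with bounds). Without replicate 3, 249 of 314 members were called lower and 6 higher, beside 26.8% lower and 21.3% higher of all genes tested. Leaf list members made up 191 of the 1397 genes called lower (13.7%), where they were 4.95% of the genes tested, and 99 of the 372 switched off. Whether the late microspore libraries held leaf RNA, or microspores expressed these genes, was not tested.

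**Figure D4:**
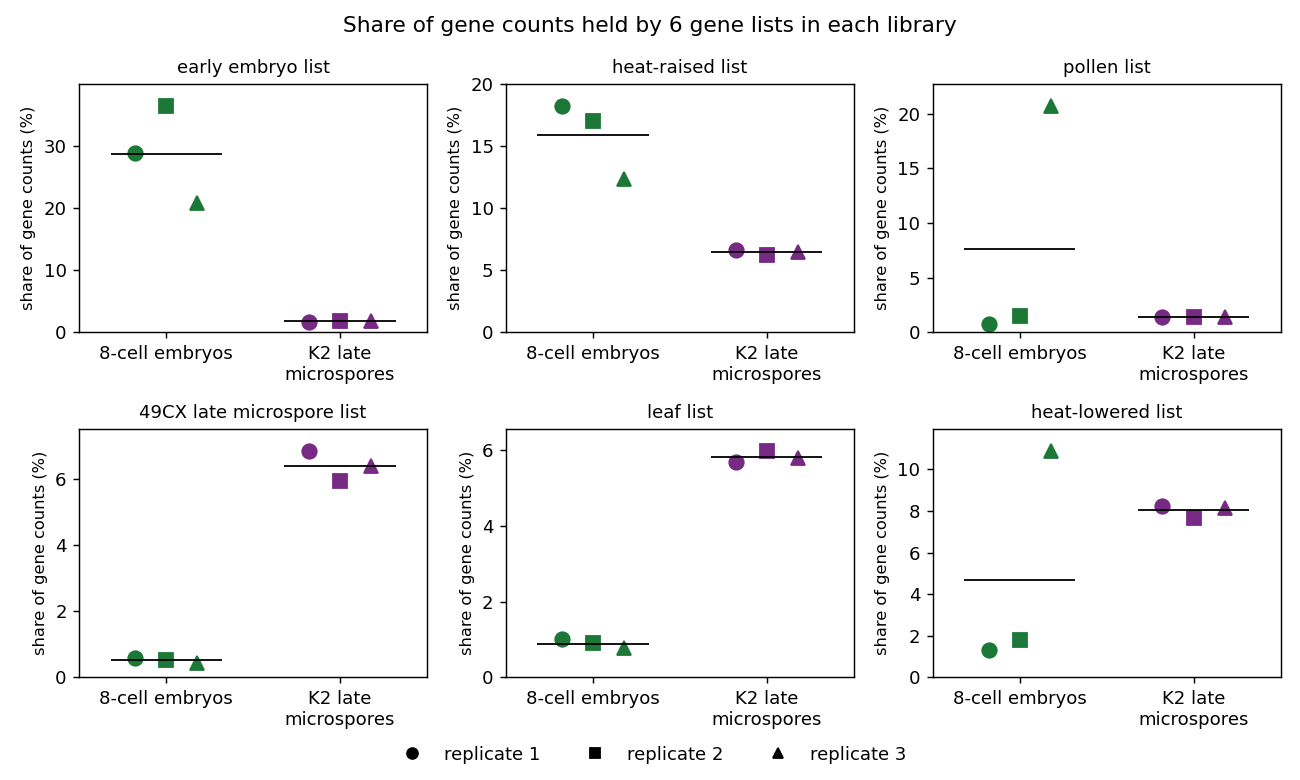
Share of gene counts held by 6 gene lists in each library of 8-cell embryos (green, left) and K2 late microspores (purple, right); each point is a library, symbols mark the replicate number and lines the mean of 3. The early embryo and heat-raised lists are higher, and the 49CX late microspore and leaf lists lower, in every 8-cell library; replicate 3 alone is high in the pollen list (20.7%) and the heat-lowered list (10.9%).

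Calls among pollen list genes depended on the libraries in the fit. Of the 712 members 59 passed the filter (8.29%, beside 9.17% of all genes). Of these, 18 were called higher (30.5%, beside 27.4% of all tested genes) and 8 lower (13.6%, beside 32.3%). Without replicate 3, 12 of 84 members were called higher and 35 lower, beside 21.3% higher and 26.8% lower of all genes tested. The median log2 fold change of the members was then -1.01, against 1.19 with all libraries. With all K2 microspores and embryos in the fit, 399 members passed, 216 were called higher and 12 lower, with a median of 4.03. Of all 9929 genes tested in that fit, 2144 were called higher and 2114 lower. Members could pass its filter through the added groups, such as unheated K2 microspores, where the list held 11.8% of counts. The fit also kept 8-cell replicate 3, so its calls only describe the members that passed. In the 6-library fit the list made up 1.52% of the genes called higher and 1.37% of the genes tested, so its share of the higher calls was near its background.

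The genes called in the comparison were then read in other libraries. Those called higher held 40.7% of counts in 8-cell replicate 1, 45.4% in replicate 2 and 29.6% in replicate 3, against 6.10% ± 0.0762 in late microspores, values that chose them and test nothing. They held 29.6% ± 1.79 in 2-cell and 29.8% ± 3.49 in 4-cell embryos, 11.6% ± 0.492 in heated and 5.70% ± 0.0961 in unheated microspores, and 8.51% ± 0.734 in leaf (SD, n = 3). Those called lower held 3.43% ± 0.782 in 8-cell embryos, against 31.6% ± 0.437 in late microspores, and 4.59% ± 0.493 in 2-cell embryos, 12.7% ± 0.402 in heated microspores, 20.9% ± 0.133 in unheated microspores and 28.8% ± 3.16 in leaf (SD, n = 3).

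**Figure D5:**
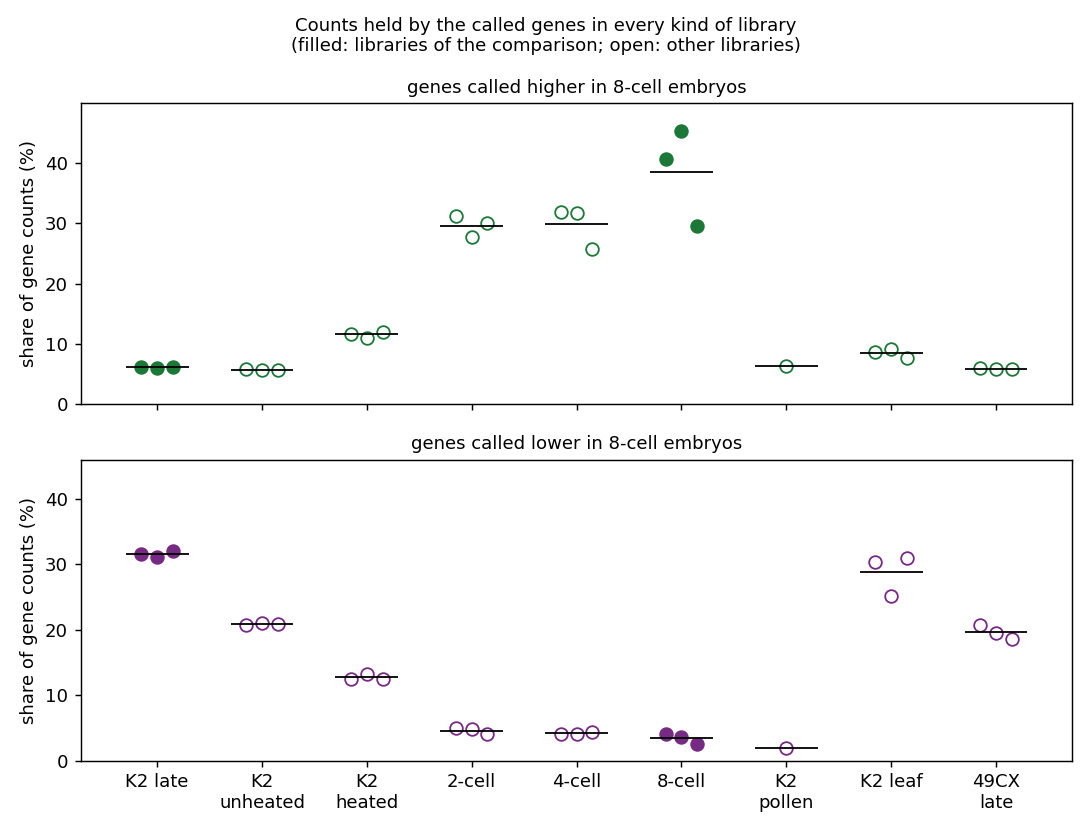
Share of gene counts held by genes called higher (upper panel) and lower (lower panel) in 8-cell embryos, in 9 groups of libraries; each point is a library, lines mark group means, and filled points are the 6 libraries that chose the genes. The genes called higher hold 29.6% and 29.8% on average in 2-cell and 4-cell embryos and 11.6% in heated microspores, and the genes called lower hold 28.8% in K2 leaf.

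A contrast that shares no library with this one gave the same directions for most called genes. In 2-cell and 4-cell embryos over 49CX late microspores, 1071 of the 1185 genes called higher (90.4%) had a log2 ratio above 0 and 867 were at least 2-fold higher, with a median of 2.16 on log2(CPM + 5). Of the 1397 genes called lower 1227 (87.8%) had a ratio below 0 and 942 were at least 2-fold lower, with a median of -1.57. Over all genes tested 42.2% were above 0 and 57.6% below, with a median of -0.37. The line differs on the microspore side of this contrast, so line and stage cannot be told apart there.

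Fewer genes shared the counts in 8-cell embryos. Thinned to 70395 counts, the 8-cell libraries held counts for 15251, 15222 and 16434 genes, against 17617, 19207 and 17905 in late microspores. The 50 most abundant genes took 14.4%, 20.1% and 12.1% of counts in 8-cell embryos, against 8.05%, 7.80% and 7.83% in late microspores. The groups did not overlap in either measure (exact 2-sided permutation p = 0.1 each). Of the 50 most abundant genes, 38, 44 and 17 in 8-cell replicates 1, 2 and 3 were early embryo list members, against 2, 2 and 3 in late microspores, and 29 in replicate 3 were pollen list members.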

How the data were processed

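RNA was sequenced from isolated cells with a low-input, strand-specific protocol, per the labels' protocols. Each deposited table holds the raw, unnormalized read counts of 1 library by gene ID. Per the submitters' processing notes the tools were Trim Galore, HISAT2, Picard and HTSeq. Tool versions, strand setting, build and annotation were not given in the sources used here, so counts of overlapping genes and close paralogs are uncertain. Entries for reads outside genes entered neither library sizes nor tests.

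CPM was computed over all gene counts of a library. Genes were tested with edgeR 4.0.16 (R 4.3.3; robust quasi-likelihood fit, TMM factors, filterByExpr, Benjamini-Hochberg adjustment) on the 6 libraries; the filter needs enough counts in 3 libraries. The fit differs from one holding a lone pollen library, which lets a gene pass through 1 library. limma 3.58.1 and DESeq2 1.42.0 gave alternatives, and the fit was tested on simulated data. K2 pollen replicates with 0 gene counts were left out.

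Lists compared group mean CPM with 5 CPM added to both sides, with at least 10 counts in the pollen library, every K2 leaf library or every 49CX late library, or a count in 4 of 6 early embryo libraries. The comparison, members and lists were chosen with earlier results of these data known. IDs named were the 2 raised and the 2 lowered most on the fitted scale among called genes with no overlap and at least 10 counts in every library of the higher group; the next ones, up to 12, are given by range. Library shares were compared with exact 2-sided permutation tests (scipy 1.17.1). A floor is 3 counts over a group. Reads carry no molecular identifiers and are not independent molecules, so floors and intervals describe counting error alone.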

Additional observations from a re-analysis of the deposited data

How the results depend on the processing

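The 2582 calls (1185 higher, 1397 lower) became 6871 (2691 and 4180) with no filter on low counts. They became 4258 (2144 and 2114) with all K2 microspores and embryos in the fit, and 4513 (2300 and 2213) with late and heated microspores, pollen and embryos, where more genes were tested. These totals were 17.8% of 38547, 42.9% of 9929 and 34.65% of 13023 genes tested, against 59.8% of 4321 in the reported fit. Thinned to the smallest total the calls became 907 (448 and 459), with 1272 genes tested. In the fit with all K2 microspores and embryos, 818 of the 1185 higher and 1379 of the 1397 lower genes were still called, with the median of the same genes moved by -0.50 (log2); the cause was not tested. With a stricter filter, DESeq2's Wald test, limma voom with a weight per library or per group, both other scalings, or pollen list genes left out, the totals were 2281, 2649, 2395, 2380, 2647, 2901 and 2535. With the stricter filter 46.6% of 4893 genes tested were called. Leaving out 1 library gave 2462 to 3630 calls, 1177 to 1664 higher and 1285 to 1966 lower. Over the alternatives run, 0 called genes changed direction and remained called.

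The difference in pollen list share (8-cell minus late) was 6.27 percentage points and ranged from -0.24 to 9.71 when 1 library was left out. Limited to members with a count in every library, differences in points shrank to 0.78 (pollen), 11.0 (early embryo), 6.93 (heat-raised), -0.34 (heat-lowered), -0.44 (leaf) and -0.79 (49CX late microspore); that setting drops the most lowered or raised genes by construction. The other list differences and both measures of breadth kept their direction under each alternative run, including lists built at 8-fold or 2-fold and, chosen after seeing the data, pollen list genes left out.

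Same-numbered libraries did not deviate together (r = -0.030, 0.010 and -0.012 over the tested genes), and not every library correlated best with its own number, so they share only a number. With the replicate block 2383 genes were called, 1110 higher and 1273 lower. Depth in 8-cell embryos limits switches off to genes above 11.1 CPM in late microspores.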

Other observations

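Correlations between 8-cell libraries are given over a common gene set and over genes chosen pair by pair. Over 5115 genes with at least 60 counts in the 6 libraries, Pearson r of log2(CPM + 5) was 0.72 between 8-cell replicates 1 and 2, 0.59 between 1 and 3, and 0.66 between 2 and 3. It was -0.41 to -0.15 between 8-cell and late microspore libraries and 0.93 to 0.94 between late microspore libraries. With 183 pollen list genes left out, the 8-cell pairs had 0.74, 0.75 and 0.74 over 4932 genes. When each pair was instead limited to genes whose counts in that pair summed to 20 or more, r of log2(CPM + 5) was 0.38, -0.21 and -0.04, over 1166 to 1801 genes. Late microspore pairs had 0.86 to 0.87 under that rule. Choosing genes by a pair's own sum conditions on the values that are correlated, so these values are not comparable with those over the common set. These correlations are across genes, which are not independent replicates and share each library's depth.

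The 8-cell libraries also shared part of their most abundant genes. Of the 50 most abundant, 27 were common to replicates 1 and 2, and 15 to each of them and replicate 3. Between 8-cell and late microspore libraries 0 to 2 were shared, and 44 to 47 between late microspore libraries. Of the 50 in replicate 3, 25 were heat-lowered list members, against 1 each in replicates 1 and 2. Heat-raised list members made up 27, 21 and 12 of the 50 in 8-cell replicates 1, 2 and 3.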
